A study of Mus musculus with 12 samples.

Results

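The acetylcholine receptor and synapse assembly genes are the 8 genes that encode the muscle nicotinic receptor (Chrna1, Chrnb1, Chrnd, Chrng and Chrne) and the proteins that gather it under the nerve ending (Musk, Dok7 and Rapsn). They were taken by name from the 22342 protein-coding genes of the mm9 annotation (GENCODE vM1) on chromosomes 1 to 19 and X, all 8 were found, and the rule used no measured value, although the genes were proposed with earlier results of these data known. C2C12 is a mouse myoblast line derived from C3H muscle that grows as single cells in serum and fuses into multinucleate myotubes when serum is withdrawn. Chromatin was immunoprecipitated with antibodies against 6 histone modifications from near-confluent myoblasts kept in 10% serum and from myotubes about 5 days after serum withdrawal, which had been freed of unfused cells by light trypsin treatment. All cells were at passages 15 to 18, carried no transgene or added agent according to the labels, and gave 1 library for each modification and cell type, so 12 libraries in all. No library was repeated and no input library was used here, so every ratio below compares a pair of libraries and not the conditions, and intervals cover counting error only.

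The muscle receptor is a ligand-gated cation channel built from alpha, beta and delta subunits with either a gamma subunit in fetal and denervated muscle or an epsilon subunit at the adult endplate. Agrin released by the motor nerve acts through Lrp4 on the receptor kinase MuSK, the adaptor Dok7 keeps MuSK active, and the scaffold rapsyn binds the receptors and clusters them. H3K4me3 marks active promoters, H3K4me1 and H3K4me2 flank promoters and enhancers, H3K27ac marks active promoters and enhancers, H3K36me3 lies over transcribed gene bodies and H3K27me3 over Polycomb-silenced genes.

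The libraries held 1858771 to 7033100 aligned reads, the shallowest being myoblast H3K27ac and the deepest myoblast H3K36me3. Reads that share their start and strand with at least 1 other read made up 0.828% to 6.07% of each. Levels are given as fold over the genome mean, that is, reads in a window over the number expected if the library's reads were spread evenly over the genome. Windows ran 1 kb either side of the transcription start site (TSS), or over the remaining gene body. The cell labels were checked with marker promoters: all 8 myotube markers were higher in the myotube libraries (median H3K4me3 2.31-fold in myoblasts and 46.7-fold in myotubes), and all 6 myoblast and cycling markers were lower (40.3-fold and 10.9-fold). Of 9 markers of neurons, Schwann cells, blood and liver, the median H3K4me3 was 1.38-fold and 0.388-fold. The part of such cells in the results below was not tested.

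Promoter sequences are shown for Chrna1, Chrnd, Chrng, Chrne and Musk. They are given because the muscle genes of the synapse are known to be bound by myogenic helix-loop-helix factors at E-boxes and, for subsynaptic expression, by ETS factors at N-boxes. Those of Chrnb1, Rapsn and Dok7 were searched too but are not printed. The receptor subunit among these, Chrnb1, held 3 CANNTG, 0 of the form CAGCTG, and 0 CCGGAA. Each run is the 200 bases upstream of the most 5′ annotated start of the gene, read from the mm9 genome in the direction of transcription, with every CANNTG (E-box) and CCGGAA (N-box, either strand) in capitals.
Chrna1 promoter, chr2:73418396-73418595, minus strand: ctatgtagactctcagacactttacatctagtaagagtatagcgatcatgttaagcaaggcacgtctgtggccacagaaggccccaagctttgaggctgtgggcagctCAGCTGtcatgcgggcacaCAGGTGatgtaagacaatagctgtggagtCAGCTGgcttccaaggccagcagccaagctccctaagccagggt
Chrnd promoter, chr1:89087027-89087226, plus strand: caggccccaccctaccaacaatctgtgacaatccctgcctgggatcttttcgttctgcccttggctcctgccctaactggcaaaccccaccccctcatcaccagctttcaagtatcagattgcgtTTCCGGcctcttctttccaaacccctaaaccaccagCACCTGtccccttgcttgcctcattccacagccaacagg
Chrng promoter, chr1:89102186-89102385, plus strand: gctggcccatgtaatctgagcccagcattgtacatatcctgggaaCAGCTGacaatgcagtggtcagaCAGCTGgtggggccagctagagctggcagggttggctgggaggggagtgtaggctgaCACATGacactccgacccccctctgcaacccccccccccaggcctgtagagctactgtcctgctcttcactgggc
Chrne promoter, chr11:70432719-70432918, minus strand: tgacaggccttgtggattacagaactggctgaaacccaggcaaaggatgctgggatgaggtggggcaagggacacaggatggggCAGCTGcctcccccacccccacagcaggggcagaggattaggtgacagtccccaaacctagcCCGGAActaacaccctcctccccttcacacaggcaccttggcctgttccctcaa
Musk promoter, chr4:58298634-58298833, plus strand: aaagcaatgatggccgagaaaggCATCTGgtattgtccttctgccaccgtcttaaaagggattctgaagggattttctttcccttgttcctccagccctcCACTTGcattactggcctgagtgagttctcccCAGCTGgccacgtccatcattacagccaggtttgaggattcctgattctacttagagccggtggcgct
All 8 upstream stretches held at least 1 CANNTG, against 54.9% of the 22337 promoters of the same length that could be read in full, and 5 of 8 held CAGCTG, a form of CANNTG, against 9.64%. The core CCGGAA was found in 2 of 8, Chrnd and Chrne, against 12.5%, and no member held a MEF2 or a CArG match, which 1.37% and 1.06% of promoters held. Chrna1 and Chrng each carried 2 CAGCTG, and the Chrne N-box lay 54 to 49 bp upstream of its start. These are matches of letters on either strand and not measured binding sites. Most members also had a low density of CpG. The observed over expected ratio in the 1 kb around the TSS was below 0.4 in 6 of 8, against 38.7% of all genes. Chrnb1 (0.636) and Dok7 (0.677) lay above it, and above the median of all genes (0.571).

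With 1 read added to each library, H3K4me3 at the TSS gave a myotube to myoblast ratio above 1 at each of the 8 genes, although of very different size. Of all 22342 genes, 7670 had such a ratio above 1. Chrne is among the 8 with only 0 and 9 reads, under the read minimum given next. A difference is counted here when the scaled ratio, with 1 read added to each library, is at least 2-fold and the pair of libraries holds at least 20 reads. By that rule 5 of the 7 members with enough reads were higher (Chrnb1, Chrnd, Chrng, Musk and Dok7) and 0 were lower, where 3.46% of 11402 genes were higher and 7.74% lower. The median ratio was 2.46 over the 7 members and 0.867 over all genes. The median over all genes thus lay 0.21 on the log2 scale in the other direction, and the cause of that shift was not tested. With promoters that have a peak in both cell types set to a ratio of 1, the same 5 members were higher and the share of all genes became 4.71% higher and 4.55% lower. With 500 bp either side of the TSS Chrnb1 was no longer higher, and 2.65% of genes were. With the 2 kb downstream of the TSS Chrna1 was higher too, with 5.03% of genes. In these bulk samples a change in the number of cells that carry a mark and a change in the amount of it per cell cannot be told apart.

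Among the receptor subunits with enough reads, Chrng had the largest ratio for this mark. Chrng (chr1:89102386-89108410, plus strand) encodes the gamma subunit of the fetal receptor. Its TSS window held 7 reads (3.23-fold) in myoblasts and 80 reads (31.0-fold) in myotubes, a ratio of 9.61 with a 95% interval of 4.46 to 24.7. Myoblast H3K4me3 at Chrng was low but above the genome mean (interval 1.30 to 6.65), and the authors' peak list holds no peak there, whereas the myotube list holds a peak of 4601 bp. H3K27ac went from 27 reads (18.6-fold) to 214 reads (57.9-fold), a ratio of 3.12 (2.08 to 4.84). Its reads lay mainly upstream in myotubes, 142 in the upstream 1 kb and 72 in the downstream 1 kb. H3K4me2 was 71 and 147 reads, a ratio of 1.87 (1.40 to 2.52) that missed 2-fold with total reads and reached 2.98 against shared promoters. H3K4me1 was already high in myoblasts, with 106 reads (20.9-fold, above 99.5% of genes), and stood at 69 reads (14.1-fold) in myotubes. In myoblasts Chrng thus carried H3K4me1 and H3K4me2 at a start with little H3K4me3. Beyond the window, over the rest of the gene, H3K4me2 was 28 and 259 reads and H3K4me1 58 and 187 reads.

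Chrnd (chr1:89087227-89096644, plus strand) encodes the delta subunit and ends 5741 bp before Chrng on the same strand. It had 29 H3K4me3 reads (13.4-fold) in myoblasts and 174 reads (67.5-fold) in myotubes, a ratio of 5.05 (3.39 to 7.76), and its myotube level did not differ from that of Chrna1 (66.3-fold) beyond counting error. The mark also spread into the gene: from 1 to 2 kb downstream the reads went from 6 to 75, and the called peak went from 1417 bp to 5701 bp. H3K4me1 moved the other way, from 82 reads (16.2-fold) to 37 reads (7.54-fold), a ratio of 0.466 (0.307 to 0.695). H3K27ac was 51 and 201 reads, a ratio of 1.55 (1.14 to 2.15), and H3K4me2 was 131 and 118 reads, a ratio of 0.813 (0.629 to 1.05). The plot of the locus shows the paired genes with H3K4me3 over each start in myotubes and little between them.

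**Figure D1:**
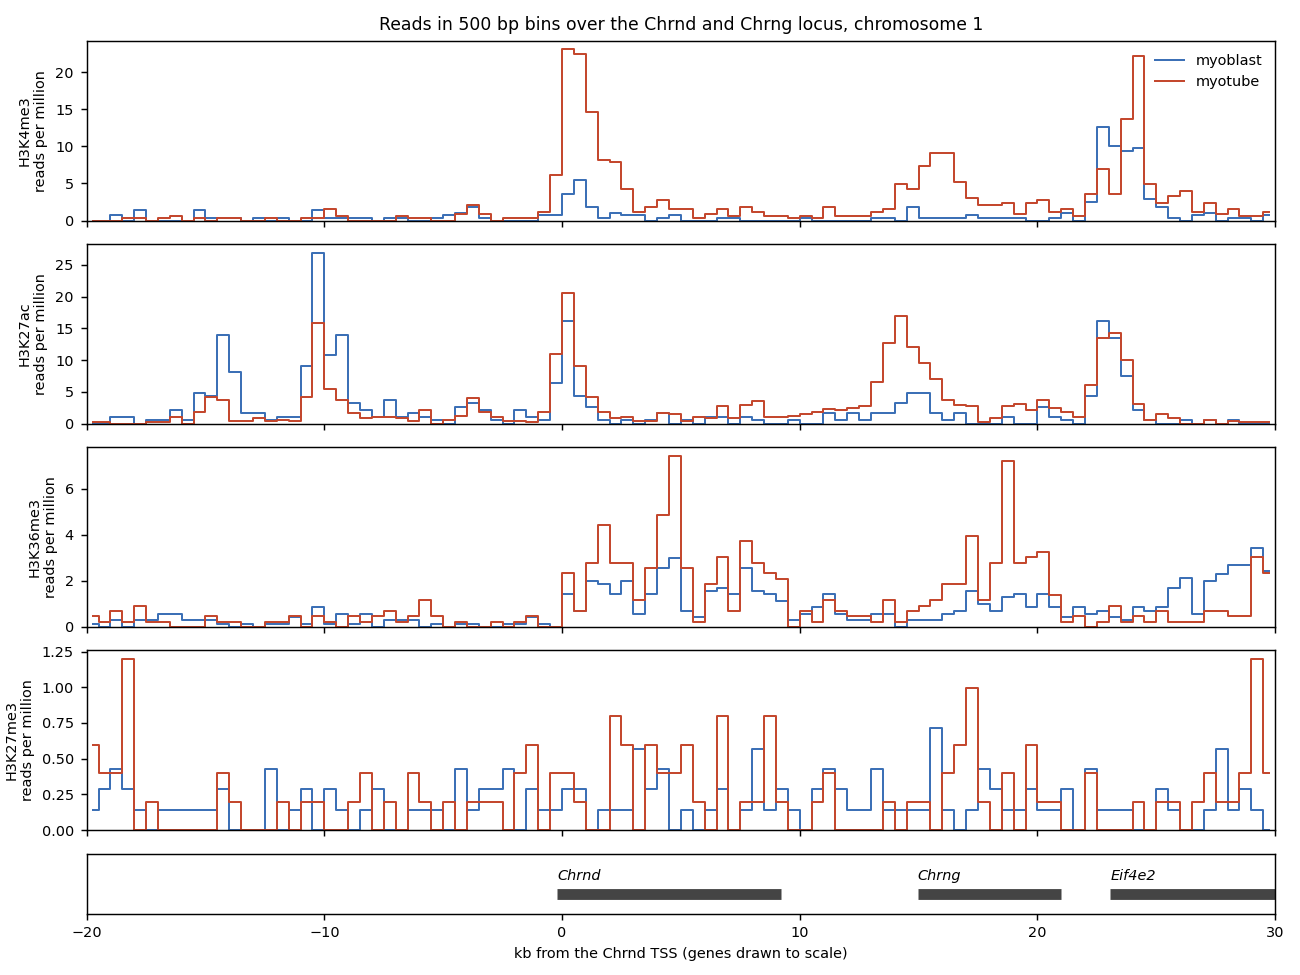
Reads per bin of 500 bp, scaled to the total of each library, over the Chrnd and Chrng locus against the distance from the Chrnd TSS in kb, for H3K4me3, H3K27ac, H3K36me3 and H3K27me3, with 1 myoblast library (blue) and 1 myotube library (red) for each mark and the genes drawn to scale below. Myotube H3K4me3 stands over the starts of Chrnd (174 reads) and Chrng (80 reads), myoblast H3K27ac is higher at the 2 upstream regions, and H3K27me3 stays low throughout.

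Chrna1 (chr2:73401272-73418395, minus strand) encodes the alpha subunit, which forms most of the acetylcholine binding site. It was the member with the most H3K4me3 in myoblasts, 83 reads (38.3-fold, above 81.7% of genes), and held 171 reads (66.3-fold, above 98.0% of genes) in myotubes. The ratio of 1.73 (1.33 to 2.28) was under 2-fold in the 2 kb window but passed it when counted over the 2 kb downstream of the TSS: the reads between 1 and 2 kb downstream went from 10 to 58. The authors' myoblast list holds 2 adjoining peaks there, of 1946 bp and 2536 bp, and the myotube list 1 peak of 4951 bp, so the called stretch was of similar length. H3K27ac was 80 and 160 reads, which is a ratio of 0.787 (0.598 to 1.04) at the depths of these libraries. H3K4me2 (90 and 94 reads) and H3K4me1 (43 and 48 reads) had ratios of 0.943 and 1.15, with intervals that hold 1.

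Chrnb1 (chr11:69597538-69609445, minus strand) encodes the beta subunit, which links the receptor to rapsyn. Its H3K4me3 went from 21 reads (9.68-fold) to 62 reads, a ratio of 2.48 (1.49 to 4.29), and the authors called a peak at the TSS in myotubes only. H3K27ac was 53 reads (36.5-fold) and 206 reads (55.7-fold), a ratio of 1.53 (1.13 to 2.11), while H3K4me2 was 131 and 112 reads. The Chrnb1 start lies 124 bp from the end of Fgf11, a gene on the same strand, so most of the upstream part of its window falls within that gene. H3K4me3 at the Fgf11 start itself was 20 and 75 reads.

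Chrne (chr11:70428385-70432718, minus strand) encodes the epsilon subunit, which replaces gamma in the receptor of adult endplates. It had 0 H3K4me3 reads in myoblasts, where 3 reads would be a level of 1.38-fold, and 9 reads (3.49-fold) in myotubes, so at least 2.52-fold more against a floor of 3 reads. The 95% lower limit of the ratio from the counts themselves was 1.66. With 3 and 12 H3K27ac reads and 3 and 14 H3K4me2 reads it had the lowest level of both marks of the 8 genes in each cell type, and no H3K4me3, H3K4me2, H3K4me1 or H3K27ac peak overlapped its TSS window in any list. H3K4me1 alone passed the read minimum, with 7 reads (1.38-fold) and 28 reads (5.71-fold), a ratio of 4.13 (1.76 to 11.2). A region of 1180 bp centred 2.88 kb upstream carried more of these marks: 17 and 67 H3K27ac reads, 62 and 40 H3K4me1 reads and 7 and 17 H3K4me3 reads. The paired subunits thus differed in myotubes, gamma at 31.0-fold and epsilon at 3.49-fold H3K4me3, with intervals of 24.6 to 38.6 and 1.60 to 6.62.

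Musk (chr4:58298834-58390290, plus strand) encodes the kinase that receives the agrin signal and is the longest of the genes. H3K4me3 was 39 reads (18.0-fold) in myoblasts and 140 reads (54.3-fold) in myotubes, a ratio of 3.02 (2.10 to 4.42). H3K27ac went from 12 reads (8.25-fold) to 139 reads (37.6-fold), a ratio of 4.56 (2.53 to 9.03), the highest H3K27ac ratio of the members with enough reads though its interval overlaps those of Dok7 and Chrng. H3K4me2 was 38 and 98 reads, a ratio of 2.33 (1.59 to 3.48), and Musk was the only member higher in all 3 of these marks with total reads as the scale. Chrng joined it with shared promoters as the scale, and with reads outside peaks Musk was no longer higher in H3K4me2. The H3K4me3 reads ran far into the gene, with 15 and 111 reads from 1 to 2 kb and 8 and 65 reads from 2 to 3 kb downstream. The myoblast list holds 2 nearby peaks there, of 2116 bp and 1703 bp, and the myotube list 1 peak of 5067 bp. H3K4me1 at the TSS was 27 and 33 reads, a ratio of 1.26 (0.736 to 2.18).

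Dok7 (chr5:35399462-35430488, plus strand) encodes the adaptor of MuSK. Its H3K4me3 was 25 reads (11.5-fold) in myoblasts and 75 reads (29.1-fold) in myotubes, a ratio of 2.52 (1.59 to 4.14). The H3K27ac count was low in myoblasts, 9 reads (6.19-fold), and 85 reads (23.0-fold) in myotubes, a ratio of 3.72 (1.87 to 8.40). H3K4me2 was 86 and 96 reads, a ratio of 1.01 (0.745 to 1.36), and H3K4me1 was 63 and 44 reads.

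Rapsn (chr2:90875777-90885886, plus strand) encodes rapsyn and was the only member lower in H3K27ac and in H3K4me2 with total reads as the scale. In myoblasts it already had 63 H3K4me3 reads (29.0-fold) and the highest levels of the 8 for H3K27ac (123 reads, 84.6-fold), H3K4me2 (267 reads, 79.5-fold) and H3K4me1 (117 reads, 23.1-fold, within counting error of Chrng). In myotubes H3K4me3 was 104 reads (40.3-fold), a ratio of 1.39 (1.01 to 1.93). The other marks of active chromatin were lower with total reads as the scale: H3K27ac at 127 reads (34.4-fold, ratio 0.406, 0.314 to 0.525), H3K4me2 at 147 reads (39.5-fold, ratio 0.497, 0.404 to 0.610) and H3K4me1 at 56 reads (11.4-fold, ratio 0.494, 0.353 to 0.685). Against shared promoters, with 1 read added, the ratios were 0.726, 0.800 and 0.515, and none was 2-fold.

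**Figure D2:**
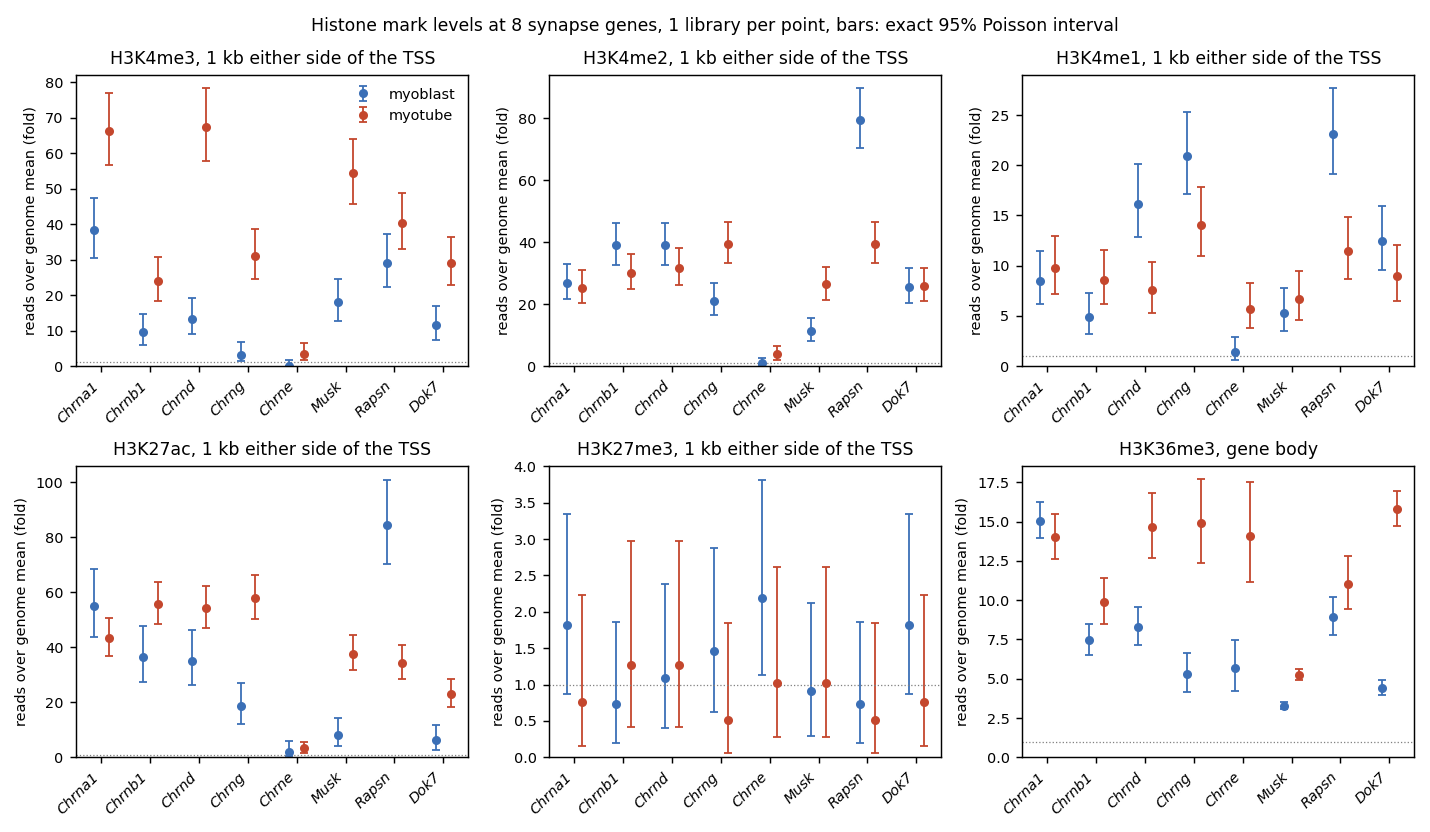
Level of each mark at each of the 8 genes as fold over the genome mean (vertical axes), in the 1 kb either side of the TSS or, for H3K36me3, over the gene body, with 1 library per point, exact 95% Poisson intervals as bars and a dotted line at the genome mean. Chrnd reaches 67.5-fold H3K4me3 in myotubes, Chrne stays near the bottom of the H3K4me3 and H3K27ac panels, and Rapsn falls from 84.6-fold to 34.4-fold H3K27ac.

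Over the 8 genes H3K27ac followed H3K4me3 only in part. Of 7 members with enough reads, 3 were higher in myotubes (Chrng, Musk and Dok7) and 1 was lower (Rapsn), where 5.22% of 10770 genes were higher and 41.5% lower. The median ratio was 1.53 over these members and 0.570 over all genes, and the shift at shared promoters was 0.84 on the log2 scale toward myoblasts. The myoblast library was also the shallowest of all. Relative to that shift, 5 members were higher, Chrnb1 and Chrnd now included, and none lower, with all genes at 15.1% higher and 12.3% lower. Chrna1 then stood at 1.40.

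H3K4me2 and H3K4me1 gave no common direction. For H3K4me2, whose shared promoters shifted by 0.68 on the log2 scale toward myoblasts, 1 of 7 members was higher (Musk) and 1 lower (Rapsn), against 2.33% and 36.2% of 13283 genes. Relative to shared promoters 2 were higher, Chrng and Musk, with 7.24% and 10.6% of genes, and with reads outside peaks as the scale 0 were higher and 2 lower, Chrnb1 and Rapsn, with 1.31% and 71.0%. For H3K4me1, 1 of 8 members was higher (Chrne) and 2 were lower (Chrnd and Rapsn), against 8.79% and 18.7% of 11838 genes, or 5.04% and 28.9% with reads outside peaks as the scale. The myotube H3K4me1 peaks at the members were 83 to 372 bp long and none covered a TSS, so peak counts of this mark were not compared between the cell types.

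**Figure D3:**
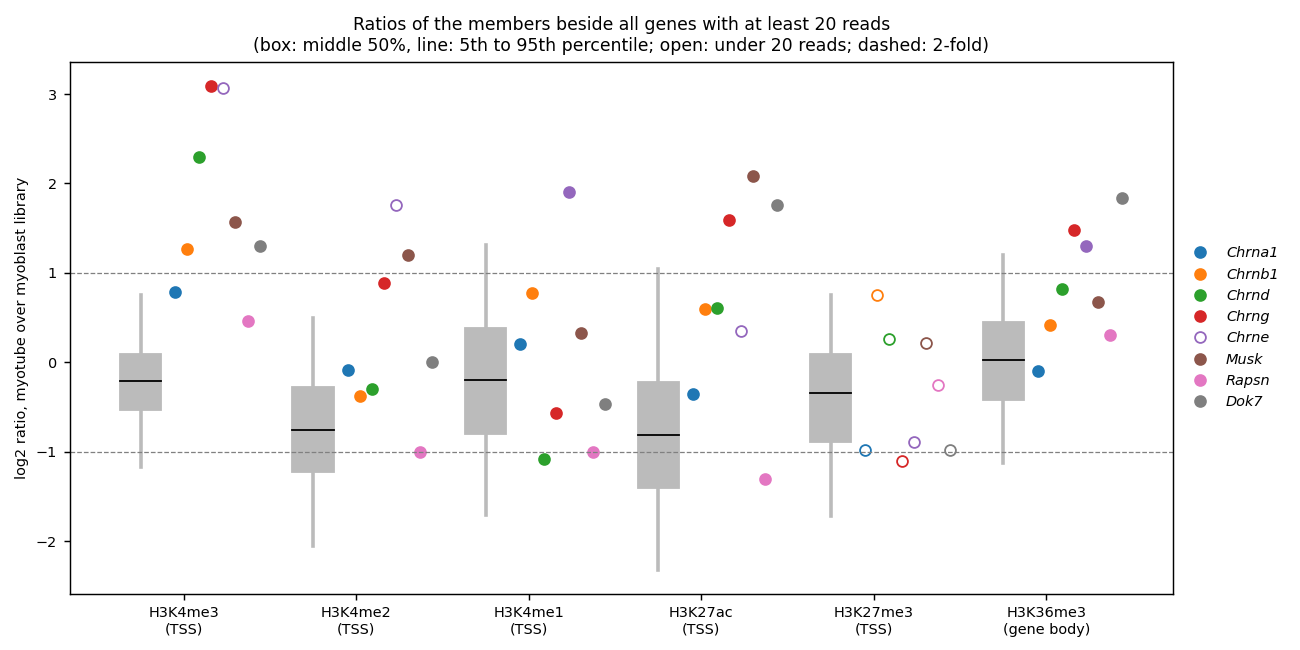
Log2 ratio of the myotube to the myoblast library (vertical axis) for each mark, with grey boxes and lines for the middle 50% and the 5th to 95th percentile of all genes with at least 20 reads and 1 point per member (open where the pair held fewer reads). The H3K4me3 points of all 8 genes, that of Chrne open, lie above 0, from 0.46 at Rapsn to 3.09 at Chrng, while for H3K4me1 they lie on both sides.

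H3K27me3 was low at the 8 starts, with intervals that hold the genome mean except at Chrne in myoblasts (12 reads, 2.19-fold, 1.13 to 3.82). The windows held 4 to 12 reads in myoblasts (0.729-fold to 2.19-fold) and 2 to 5 reads in myotubes (0.510-fold to 1.28-fold), so 0 of 8 reached the read minimum and no ratio is given. Of all 22342 genes only 3439 reached it, so most genes fell under it as the members did. Of those 3439, 2.36% were higher and 20.4% lower in myotubes, or 8.87% and 8.98% relative to shared promoters. Among the genes for the neuronal receptor subunits (Chrna2 to Chrna7, Chrna9, Chrna10 and Chrnb2 to Chrnb4), 7 of 11 reached the minimum, led by Chrna4, with 36 myoblast reads at the TSS. Its myotube count was 16 reads, and 0 of the 7 differed by 2-fold. None of these 11 reached the minimum for H3K4me3 or H3K27ac, which 11402 and 10770 of all 22342 genes reached. Chrna5 had the most H3K4me3 of them, 10 reads in myoblasts and 7 in myotubes. Over the gene bodies of the muscle genes H3K27me3 was 0.481-fold to 1.41-fold in myoblasts and 1.16-fold to 1.92-fold in myotubes. There 3 of 8 members were higher by 2-fold (Chrna1, Chrnb1 and Rapsn) and 0 lower, against 9.96% and 0.963% of 15789 genes. None was higher relative to the bodies of genes with shared promoters, whose median ratio was 1.41, with 1.79% and 5.52% of genes.

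H3K36me3 over the gene bodies was above the genome mean at all 8 genes in both cell types, from 3.29-fold at Musk to 15.1-fold at Chrna1 in myoblasts and from 5.26-fold at Musk to 15.8-fold at Dok7 in myotubes. Of the 8, 3 were higher in myotubes and 0 lower, where 7.61% of 15571 genes were higher and 6.73% lower, or 10.8% and 4.69% with reads outside peaks as the scale. Dok7 led with 361 and 793 reads, a ratio of 3.58 (3.16 to 4.07), and all of its 3 equal stretches were higher, with ratios of 3.99, 2.88 and 4.68 from the TSS on.

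Chrng had 73 and 126 H3K36me3 reads, a ratio of 2.82 (2.09 to 3.81). The 5741 bp between Chrnd and Chrng held 45 and 30 reads (2.85-fold and 3.10-fold), and Eif4e2, which starts beyond Chrng, had a body ratio of 0.998. Neither neighbouring stretch had a 2-fold difference. Chrnd itself had 187 and 203 reads, a ratio of 1.77 (1.44 to 2.17).

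Chrne had 52 and 79 H3K36me3 reads, a ratio of 2.48 (1.72 to 3.59), and reached 14.1-fold in myotubes despite the low H3K4me3 at its start. Its body overlaps a noncoding gene on the other strand, 4930544D05Rik, by 1043 bp and ends 399 bp from Mink1, whose body had 894 and 725 reads, a ratio of 1.32. ChIP reads carry no strand of transcription, so the share of the overlapping gene in this value was not tested. Along Chrne from its TSS the myotube level was 6.94-fold, 16.0-fold and 19.2-fold over 3 equal stretches, and the 5 kb upstream of its TSS window was at 0.593-fold.

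The remaining genes stayed under 2-fold in H3K36me3. Chrna1 was already at 15.1-fold in myoblasts, above 98.5% of genes, and had a ratio of 0.932 (0.819 to 1.06). Musk (819 and 802 reads, ratio 1.60), Chrnb1 (223 and 182 reads, ratio 1.33) and Rapsn (223 and 169 reads, ratio 1.24) had intervals that lie above 1.

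**Figure D4:**
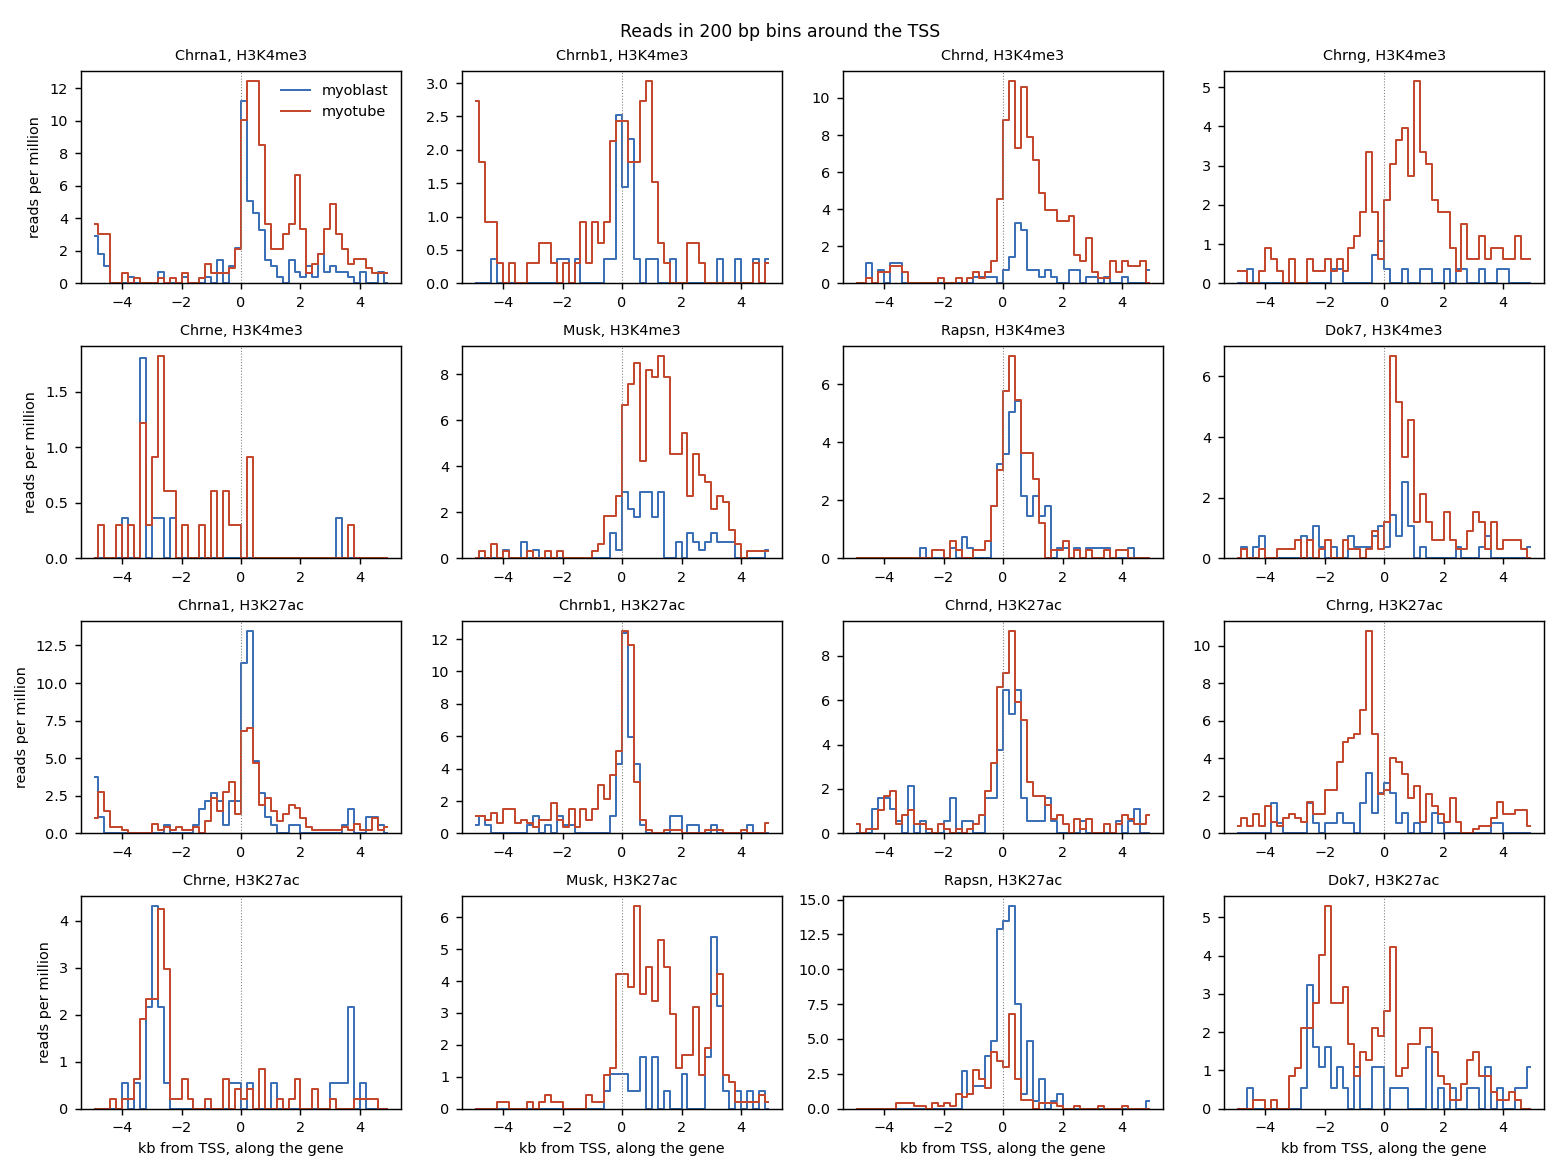
H3K4me3 (upper 8 panels) and H3K27ac (lower 8 panels) in reads per 200 bp bin, scaled to the total of each library, against the distance from the TSS in kb along the gene, with 1 myoblast library in blue and 1 myotube library in red and a separate vertical scale for each panel. Myotube H3K4me3 extends beyond 2 kb into Chrnd and Musk, H3K27ac at Chrng peaks upstream of the start, and the signal near Chrne lies about 3 kb upstream of its start.

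In the deposited lists an H3K4me3 peak overlapped the TSS window at 5 of 8 members in myoblasts (Chrna1, Chrnd, Musk, Rapsn and Dok7) and at 7 of 8 in myotubes, all but Chrne, where 48.6% and 48.8% of all genes had a peak. H3K4me2 peaks stood at the same 7 members in both cell types, against 56.7% and 52.9% of all genes. The myoblast lists of the K27 marks go against their labels: the list deposited with H3K27me3 covers sequence that holds 36.4-fold H3K27ac reads and 0.804-fold H3K27me3 reads, and the list deposited with H3K27ac the reverse (0.588-fold and 6.76-fold). Taken as deposited, 7 of 8 members would have a myoblast H3K27me3 peak and 0 an H3K27ac peak. With the lists exchanged, as the reads have it, 7 have an H3K27ac peak and 0 an H3K27me3 peak, against 46.0% and 5.03% of all genes. In myotubes 7 of 8 had an H3K27ac peak, again all but Chrne, against 42.2% of all genes.

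Regions outside promoters were taken from the H3K27ac peaks (the myotube list and the exchanged myoblast list, joined where under 500 bp apart) at least 1 kb from any annotated coding TSS and within 20 kb of a member. There were 24 such regions, some of them inside other genes, and 18 held enough H3K27ac reads. Of these 7 were higher in myotubes and 4 lower, where 42.4% of 17078 such regions in the genome were higher and 20.2% lower, and the median ratio of all was 1.52, so the counts near the members did not stand out. For H3K4me1, 5 of 22 were higher and 5 lower, against 15.3% and 28.3% of 21635. The individual regions of each gene differed widely, with no region at Chrnb1. A region with a peak in only 1 cell type was chosen by its H3K27ac there, so its ratio leans toward that cell type. Ratios at regions are given with 1 read added.

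Musk was the gene whose regions were all higher, 4 of the 4 with enough H3K27ac reads. Within the gene, a region 44.0 kb downstream of the TSS had 0 H3K27ac reads in myoblasts and 64 in myotubes. That was at least 8.39-fold more against the floor of 3 reads, with a 95% lower limit of 6.63 from the counts. H3K4me1 there was 13 and 47 reads. Regions at 21.1 kb (5 and 58 reads) and 41.2 kb (1 and 22 reads) downstream and 14.3 kb upstream (6 and 59 reads) were higher as well. H3K4me1 at the upstream one was 46 reads in each library, so that region was marked in both cell types. The regions at 21.1, 41.2 and 44.0 kb entered through the myotube H3K27ac list alone. Their higher myotube H3K27ac thus follows in part from how they were chosen.

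Around Chrnd and Chrng the regions differed in direction with total reads as the scale. A region 14.4 kb upstream of Chrnd had 57 and 49 H3K27ac reads, a ratio of 0.339 (0.226 to 0.504), and 137 and 37 H3K4me1 reads, a ratio of 0.284 (0.189 to 0.404). A region 9.83 kb upstream had 124 and 150 H3K27ac reads, a ratio of 0.475 (0.373 to 0.609), and 156 and 70 H3K4me1 reads, a ratio of 0.467 (0.344 to 0.618). Both were thus weaker in the myotube libraries with total reads as the scale, while the Chrnd start gained H3K4me3. Relative to shared promoters neither was 2-fold lower in H3K27ac. A region inside Chrnd, 7.58 kb downstream of its TSS, instead had 4 and 48 H3K27ac reads, a ratio of 3.86 (1.73 to 18.0). A region at the 3′ end of Chrng, 4.91 kb from its TSS, had 9 and 68 reads, a ratio of 2.71 (1.48 to 6.78). These regions inside Chrnd and at the end of Chrng entered through the myotube H3K27ac list alone. Their higher myotube H3K27ac thus follows in part from how they were chosen.

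At Chrna1 a region 12.2 kb upstream was lower in H3K27ac (101 and 122 reads, ratio 0.474) and one 6.26 kb upstream had 26 and 95 reads, a ratio of 1.40 (0.923 to 2.31), with H3K4me1 at 30 and 67 reads, a ratio of 2.27 (1.48 to 3.68). The latter region holds the annotated start of a noncoding gene, Gm13705, and had 27 and 66 H3K4me3 reads. It is thus outside coding promoters only. Dok7 had a region within the gene, 16.9 kb downstream, with 57 and 152 H3K27ac reads (ratio 1.04) and 204 and 104 H3K4me1 reads (ratio 0.529). A region 19.8 kb upstream of Dok7 lies inside another gene, Rgs12, and was lower in H3K27ac, with 63 and 70 reads and a ratio of 0.436 (0.306 to 0.624). Near Rapsn the 1 higher region lay 30.2 kb downstream of its TSS, a stretch annotated to Psmc3 and Slc39a13, with 1 and 19 reads and a ratio of 3.93 (1.19 to 310.5). The lower ratios rest on total reads as the scale: relative to shared promoters 0 of the 18 regions were lower in H3K27ac.

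The middle 200 bases of the Musk region with the largest H3K27ac ratio and the Chrnd region with the smallest, among regions with enough reads, are shown because they mark the ends of this range, with CANNTG in capitals. The word intronic means here only that the region lies within the gene, since overlap with exons was not checked.
Musk intronic region, chr4:58342706-58342905, plus strand: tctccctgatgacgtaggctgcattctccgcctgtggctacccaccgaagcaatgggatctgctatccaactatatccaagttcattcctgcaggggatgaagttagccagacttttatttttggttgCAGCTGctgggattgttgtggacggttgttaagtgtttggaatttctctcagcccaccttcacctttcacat
Chrnd upstream region, chr1:89072896-89073095, plus strand: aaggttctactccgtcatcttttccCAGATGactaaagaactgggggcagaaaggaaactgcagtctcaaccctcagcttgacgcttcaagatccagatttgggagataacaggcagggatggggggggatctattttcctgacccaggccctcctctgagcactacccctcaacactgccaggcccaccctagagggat
Each stretch held 1 CANNTG, in Musk of the form CAGCTG, where 70.8% of the 29545 regions outside promoters held CANNTG and 17.5% held CAGCTG in their middle 200 bases. Neither held a MEF2 match.

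**Figure D5:**
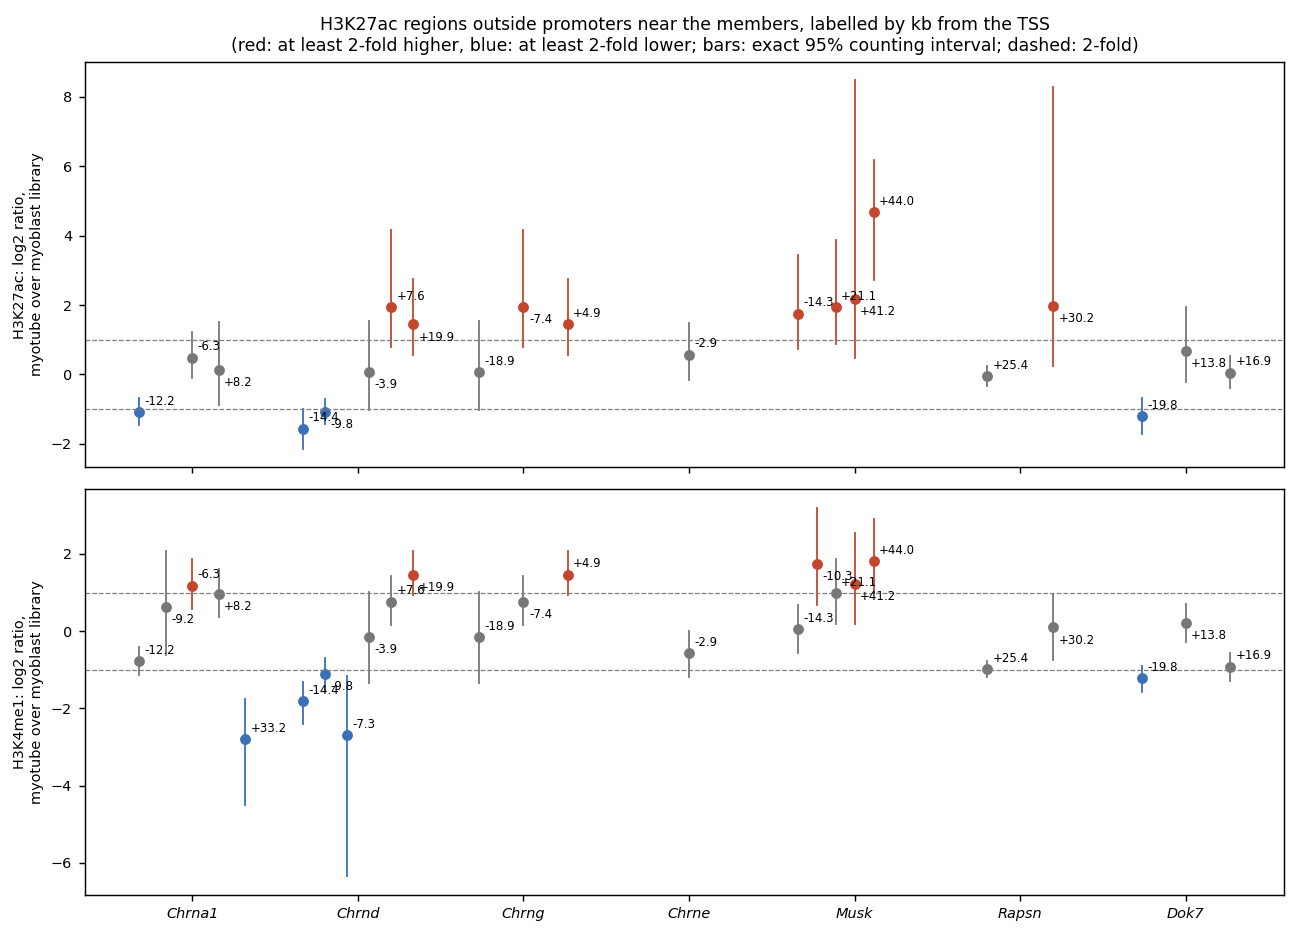
Log2 ratio of the myotube to the myoblast library (vertical axes) for H3K27ac and H3K4me1 at H3K27ac regions outside promoters within 20 kb of each member, 1 point per region with enough reads, labelled by its distance from the TSS in kb, with exact 95% counting intervals (red at least 2-fold higher, blue at least 2-fold lower, grey neither). Regions within 20 kb of both Chrnd and Chrng appear under both, all 4 Musk regions are red in the H3K27ac panel, and the regions 14.4 kb and 9.83 kb upstream of Chrnd are blue in both.

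The 35 other genes of the synapse and its control that were listed beside the members had a median H3K4me3 ratio of 0.925 over the 31 with enough reads, near the 0.867 of all genes. Of the 31, 7 were higher and 2 lower, against 3.46% and 7.74% of all genes. The higher ones with the largest ratios were Hdac9 (0 and 40 reads), a histone deacetylase, Col13a1 (2 and 65 reads) and Colq (2 and 51 reads), which encode collagens of the neuromuscular junction, Myog (13 and 89 reads), the myogenic factor that also served as a myotube marker, Erbb3 (51 and 195 reads), a neuregulin receptor, and Dtna (31 and 113 reads), a dystrobrevin of the postsynaptic membrane. The lower ones were Agrn (22 and 11 reads) and Nrg1 (47 and 26 reads), which encode the agrin and neuregulin signals themselves. But relative to shared promoters their ratios were 0.507 and 0.546, and 0 of 31 were lower, against 4.55% of all genes. For H3K27ac 7 of 31 were higher and 7 lower, against 5.22% and 41.5% of all genes, and the higher ones with the largest ratios were Myog (18 and 312 reads), Colq, Hdac9, Dtna, Lrp4 and Col13a1. Lrp4, the agrin receptor that acts on MuSK, had 24 and 189 reads. The lower ones with the smallest ratios were Etv4, an ETS factor with 54 and 20 reads, Pak1, Gfpt1, Nrg1, Lamb2 and Ctnnb1. Relative to shared promoters only Etv4 was lower, and 13 of 31 were higher, against 12.3% lower and 15.1% higher among all genes.

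The genes whose 12 TSS values lay nearest to those of each member, by Euclidean distance on the log2 scale, were named for each. For Chrnd they were Ldb3 (distance 1.46), Dusp27 and Jsrp1 (1.57), and for Chrng they were Kbtbd5 (1.48), Camk2a (1.85) and Aldh3b1 (1.99). For Musk they were Mrpl45 (1.24), Sorbs2 (1.24) and Dtna (1.37), and for Dok7 Fabp3 (1.27), Gm10570 (1.33) and Lama2 (1.46). Chrna1 lay nearest to Epha2, B4galt1 and Dak, Chrnb1 to Zfp438, ORF63 and Adamtsl4, Rapsn to Med31, Smcr7 and Agxt2l2, and Chrne to C630050I24Rik, Gm17482 and Spink4. No member was among the 3 genes nearest to another: the closest pair were Musk and Dok7, at a distance of 2.48, and the member nearest to Chrne, Dok7, was at 8.91. Among all genes ordered by distance, the nearest member had rank 37 for Chrng, 40 for Musk, 59 for Dok7 and 90 for Chrnd. The rank was 224 for Rapsn, 320 for Chrnb1, 492 for Chrna1 and 11209 for Chrne.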

How the data were processed

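Per the labels and the study's methods, chromatin was immunoprecipitated, libraries of about 250 bp were amplified for 15 PCR cycles, and reads of the myoblast libraries were aligned to mm9 with Mosaik 1.0.1384, kept where unique, and used to call peaks with MACS. The aligner of the myotube libraries is not given in the sources used here. The deposited read positions were tallied as counts, and the MACS score of each peak was used as the authors deposited it. Reads were extended to 150 bp and assigned by midpoint to windows 1 kb either side of the TSS, taking for each gene the annotated start with the most H3K4me3 reads in both cell types, and to gene bodies of at least 500 bp outside that window. Ratios were scaled by total reads, with exact conditional binomial 95% intervals for ratios and exact Poisson 95% intervals for levels. Both cover counting error only, since PCR copies are not independent molecules. With 1 library per group no test of conditions was possible. Neighbours are genes whose TSS lies within 5 kb of that of a member, or that overlap it or end or begin within 3 kb of it. That rule is wider than first set, and not all neighbours are named. The 3 nearest genes are given for each member, and from the comparison lists up to 6 genes were to be named per direction for H3K4me3 or H3K27ac. Members and lists were chosen with earlier results of these data known, and the rule for regions outside promoters, the H3K27me3 body counts and the alternatives for them after the data were seen. Alternatives varied the window, start, extension, duplicates, scaling, added reads, read minimum, depth and call rule. The value of 1 marker gene is not reported here. Ratios and calls were tested on simulated data. Python 3.11.15, NumPy 2.4.6, SciPy 1.17.1 and matplotlib 3.10.9 were used.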

Additional observations from a re-analysis of the deposited data

How the results depend on the processing

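Of the 424 ratios recomputed for single genes and marks under other settings, 392 stayed within the interval of the reported value, 32 moved outside it and 0 of the called ones changed direction. For H3K4me2 the 1 member higher became 2 with the 2 kb downstream of the TSS, 2 with shared promoters as the scale, 2 with a minimum of 10 reads and 0 with windows outside peaks as the scale. The 1 member lower in H3K4me2 (Rapsn) became 0 under 6 settings and 2 with windows outside peaks, and the 2 lower in H3K4me1 became 1 under 5 settings. For H3K27ac the 3 members higher became 5, and the 1 lower became 0, with shared promoters as the scale. That scale, chosen for the 35 listed partners after the data were seen, took their H3K4me3 lower count from 2 to 0 and their H3K27ac counts from 7 higher and 7 lower to 13 and 1. For H3K27me3 at the TSS the 0 members lower became 1 (Chrng, 8 and 2 reads) with a minimum of 10 reads, and over gene bodies the 3 higher became 0 with shared promoters as the scale. At regions outside promoters, the 4 lower in H3K27ac became 0 with shared promoters as the scale, and with windows outside peaks the 5 higher and 5 lower in H3K4me1 became 3 and 8. Myoblast H3K4me3 peaks of score 100 or more stood at 3 members in place of 5, myotube H3K4me1 peaks that cover the TSS at 0 in place of 6, and with the myoblast K27 lists exchanged H3K27ac peaks stood at 7 and H3K27me3 peaks at 0. The cause of each shift in scale was not tested. The H3K4me3 and H3K36me3 counts stayed within 1.5 times. In H3K4me3, however, Chrnb1 was not higher with 500 bp either side of the TSS, and Chrna1 was higher with the 2 kb downstream. Depth limits the H3K27me3 windows at all 8 starts, which fell under the read minimum, and H3K4me3 at Chrne, which rests on 9 reads.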
